A study of Arabidopsis thaliana with 4 samples.

Results

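The genes described here are 26 genes of the chloroplast genome of Arabidopsis thaliana that encode ribosomal proteins, the core of the plastid RNA polymerase and other plastid proteins, compared between wild-type and ago4-1 plants. They are the plastid-encoded genes that the array reports with a probe set of their own and whose symbols do not begin with psa, psb, pet, atp, ndh or rbc, with the brightest probe set taken where a gene had more than one. They are 26 of the 69 plastid-encoded genes found in this way, the other 43 being genes of photosynthesis, among the genes that had a probe set of their own, 13286 in number. Whole plants, 5 weeks old and grown in hydroponics with 16 h of light, were profiled on 4 Affymetrix ATH1 arrays. On this chip each probe set combines several short probes to a transcript into one signal. The wild type was the line the labels call La-er, with 2 arrays titled biological replicates, and the mutant carried the allele ago4-1 of AGO4, the Argonaute protein that uses small interfering RNAs to direct DNA methylation in the nucleus, also with 2. The labels do not say how many plants lie behind an array or from which line ago4-1 was taken, and the p-values therefore rest on the spread between these samples.

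The plastid keeps a small genome of bacterial origin with its own transcription and translation. Part of its ribosomal proteins are encoded in the plastid and part in the nucleus, and the plastid genes for them lie in groups that resemble bacterial operons, in which neighbouring genes are transcribed together. The bacterial-type polymerase has the plastid-encoded core subunits alpha, beta, beta' and beta'' (rpoA, rpoB, rpoC1 and rpoC2) and needs nuclear sigma factors, and a second, phage-type polymerase is wholly nuclear. In tobacco, plastid genes of photosynthesis depend on the bacterial-type enzyme, while the rpoB operon and accD are read by the phage-type enzyme. Most plastid transcripts carry no stable poly(A) tail, and the labels do not say how the RNA was primed for labelling.

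Transcripts of this group of plastid genes stood lower in ago4-1. Of the 24 that were bright enough to be tested, 23 had a log2 difference below 0 (ago4-1 minus wild type, on the scale of log2(signal + 16)), and the median was -0.40, a 1.32-fold lower signal in ago4-1. Over all 15922 tested probe sets 54.3% stood below 0, with a median of -0.04. The differences of single genes were small, from -0.70 for rpoC2 to 0.05 for rps16. In limma, with Benjamini-Hochberg adjustment over all tested probe sets, 4 of the 24 fell in ago4-1 at an adjusted p under 0.05 (rpl22, rps2, rps19 and rpoC2), where 1.92% of all tested probe sets were called lower, and 0 rose, where 2.14% were called higher. At an unadjusted p under 0.05 there were 15 lower and 0 higher, against 11.4% and 8.96% of all tested probe sets. The remaining genes, rpoB and rps14, had a mean over the 4 arrays under the low-signal limit and were not tested; rpoB stood higher on both ago4-1 arrays, at a log2 difference of 0.65. Over all 26 genes, tested or not, 24 stood below 0 and the median was -0.39. In whole plants, fewer plastid-bearing cells and less plastid RNA per cell cannot be told apart.

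The arrays of a genotype lay close together for these genes. The signals of the 26 probe sets summed to 159739 and 162342 in the wild-type samples, and to 131245 and 128255 in the ago4-1 samples. That was 0.946% and 0.960% of the summed signal of the chip in wild type, and 0.776% and 0.774% in ago4-1, so both mutant arrays lay below both wild-type arrays. Gene by gene, both ago4-1 arrays lay below both wild-type arrays for 19 of the 24 tested genes, where 29.2% of all tested probe sets did so. For the other 5 (rpl32, rps4, rps15, rps16 and ycf3) the genotypes overlapped. Between the wild-type arrays the median absolute log2 difference of the 24 genes was 0.07, with 12 genes higher on each array, and between the ago4-1 arrays it was 0.17, with 15 genes higher on replicate 2. Each of the 4 pairs of a wild-type and an ago4-1 array gave a median from -0.36 to -0.31, with 21 to 23 genes below 0; these pairs share arrays.

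**Figure D1:**
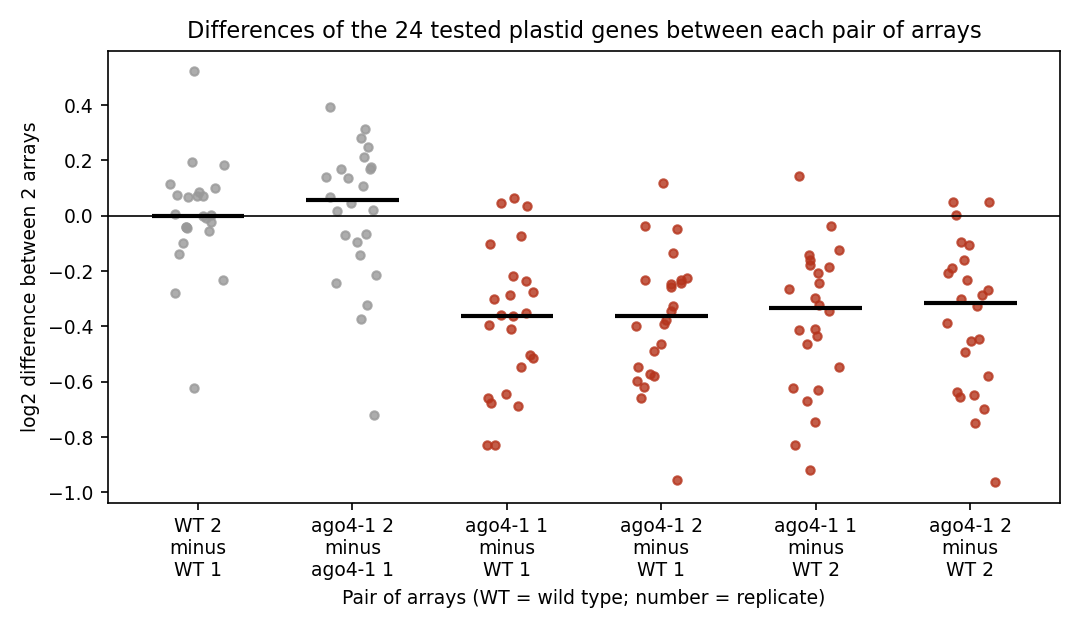
Log2 differences of the 24 tested plastid genes (points) between each pair of arrays, with grey for arrays of the same genotype, red for an ago4-1 array minus a wild-type array, and a bar at the median. The medians of the wild-type pair (0.00) and of the ago4-1 pair (0.06) lie near 0, and those of the 4 pairs of different genotype lie from -0.36 to -0.31.

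The core subunits of the bacterial-type polymerase included the gene with the largest decrease. The signal of rpoC2 (ArthCp012), which encodes the beta'' subunit, was 1643 on each wild-type array, against 919 and 1094 in ago4-1. Both mutant signals were thus below the wild-type signals, which were nearly equal. With 2 arrays these do not show how much the wild-type level varies. The gene fell 1.63-fold (log2 difference -0.70, SE 0.15, limma adjusted p = 0.0376). Its neighbour rpoC1, for the beta' subunit, was 1618 and 1332 in wild type against 998 and 1102 in ago4-1, with no overlap between genotypes (log2 difference -0.48, SE 0.16, limma adjusted p = 0.133). The alpha subunit gene rpoA, which lies elsewhere in the genome at the end of a ribosomal protein cluster, was 9258 and 9267 in wild type against 6339 and 7886 in ago4-1 (log2 difference -0.39, SE 0.13, limma adjusted p = 0.128). Only rpoC2 passed the test among these 3, although all 3 had unadjusted p-values under 0.05. The beta subunit gene rpoB had much lower signals, 24.9 and 33.1 in wild type against 47.9 and 61.9 in ago4-1. Its difference was 0.65 on the log2 scale. Both mutant arrays lay above both wild-type arrays, where 23.2% of all tested probe sets did so. It has no test because its mean over all 4 arrays, 5.81 on that scale, was just under the limit of 5.91, although each ago4-1 array alone was above it. It lies directly beside rpoC1, and the next gene with a probe set on its other side, the photosynthesis gene petN, stood at 0.51 without being called.

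All 7 genes for proteins of the large ribosomal subunit stood below 0, with a median log2 difference of -0.44. The one that passed was rpl22 (ArthCp062), whose protein L22 lines the exit tunnel of the ribosome in bacteria. Its signal was 10942 and 10650.1 in wild type against 6917 and 7786 in ago4-1. The genotypes were far apart compared with either pair of replicates, and the gene fell 1.47-fold (log2 difference -0.56, SE 0.11, limma adjusted p = 0.0278). Next in p came rpl16, with 5850.5 and 5811 in wild type against 3651 and 4439 in ago4-1. Its log2 difference was -0.53 (SE 0.13, limma adjusted p = 0.0578), just outside the threshold. The neighbour rpl14 was 9952 and 9680.2 in wild type against 7021 and 7938 in ago4-1 (log2 difference -0.39, limma adjusted p = 0.0842). The gene rpl33 was 11546 and 13200.1 in wild type against 9917 and 8369 in ago4-1 (log2 difference -0.44, limma adjusted p = 0.0852). In both genes each mutant array was below each wild-type array.

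The other 3 genes of the large subunit had wider or smaller differences. The lowest in log2 difference was rpl20, at -0.57, but its wild-type arrays were also the furthest apart of the 7, with 201 and 296 in wild type against 149 and 170 in ago4-1 (SE 0.24, limma adjusted p = 0.219). The signals of rpl36 were 4597 and 3913 in wild type against 3459 and 3501 in ago4-1, a log2 difference of -0.28 whose 95% interval just reached 0 (-0.57 to 0.00). The genotypes overlapped for rpl32, with 10465 and 11897 in wild type against 10930.4 and 8743 in ago4-1, and a log2 difference of -0.19.

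The genes for proteins of the small subunit ran from -0.67 (rps2) to 0.05 (rps16). Of 7 tested, 6 stood below 0, with a median of -0.21, and 2 fell. The signal of rps2 (ArthCp011), which lies beside rpoC2, was 2015 and 2162 in wild type against 1283 and 1325 in ago4-1. It fell 1.59-fold (log2 difference -0.67, SE 0.13, limma adjusted p = 0.0311), with the mutant arrays close to each other and far below wild type. The signal of rps19 (ArthCp063), whose protein sits in the head of the small subunit in bacteria, was 11636 and 12593 in wild type against 8139 and 8950.1 in ago4-1. It fell 1.42-fold (log2 difference -0.50, SE 0.11, limma adjusted p = 0.0364). For rps3, another protein of the head, the arrays were at 16042 and 15447 in wild type against 12574 and 13535 in ago4-1, without overlap (log2 difference -0.27, limma adjusted p = 0.158). For rps18 they were at 3713 and 3940.2 in wild type against 3461 and 3136 in ago4-1, also without overlap (log2 difference -0.21, limma adjusted p = 0.363).

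Other genes of the small subunit differed little. The gene with the brightest probe set of the 26, rps4, whose protein binds ribosomal RNA early in assembly of the bacterial subunit, was 27144 and 28495 in wild type against 27787 and 26459 in ago4-1. Its log2 difference was -0.04, with a 95% interval from -0.23 to 0.16, and its sign turned with quantile normalization (0.053) and with arrays centred on their medians (0.014). The gene rps16 was 506 and 472 in wild type against 524 and 489.6 in ago4-1, a log2 difference of 0.05 (95% interval -0.32 to 0.42). The gene rps15 was 323 and 339 in wild type against 264 and 352 in ago4-1 (log2 difference -0.11, 95% interval -0.56 to 0.34). All 3 had overlapping genotypes. The intervals of rps4 and rps16 lay wholly above those of rpoC2 (-1.04 to -0.36) and rps2 (-0.98 to -0.37). These genes were picked from the ends of the range and share the same arrays. A difference between them was not tested. The untested rps14 had 9.55 and 37.1 in wild type against 9.25 and 35.9 in ago4-1, values near the floor of the scale that differed more between replicates than between genotypes.

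**Figure D2:**
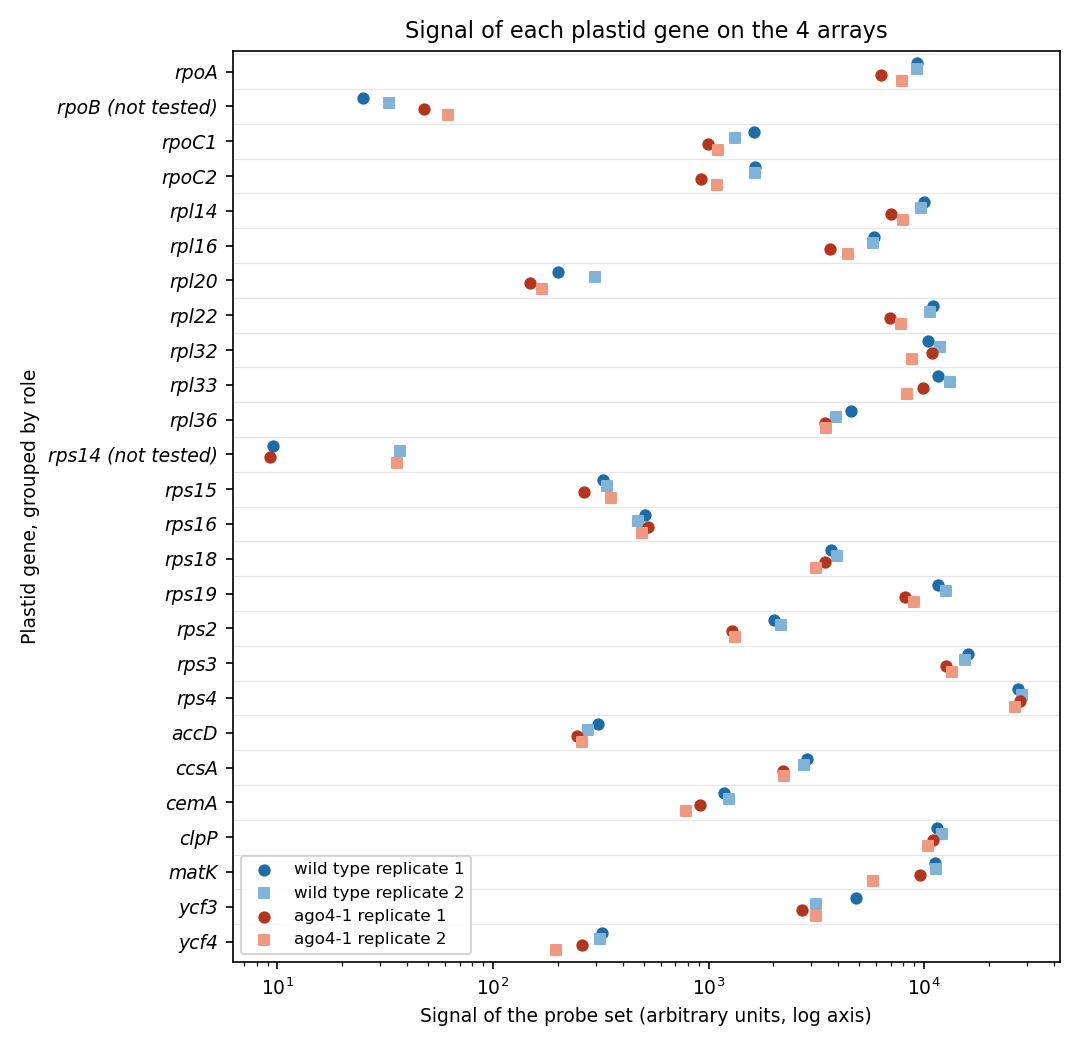
Signal of each of the 26 plastid genes (rows, grouped by role) on the 4 arrays, on a log axis in the arbitrary units of the deposited values; levels of different genes come from different probes and are not compared. For rpl22, rps2, rps19 and rpoC2 both ago4-1 points lie left of both wild-type points, while for rps4 and rps16 the points of the genotypes mix.

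The 7 genes outside the ribosome and polymerase all stood below 0, with a median of -0.41, and 0 passed the test in limma (4 at an unadjusted p under 0.05). The largest difference was that of matK, which encodes the maturase that helps to splice plastid introns. It was 11272 and 11329 in wild type against 9576 and 5803 in ago4-1, so the size of the difference rested on ago4-1 replicate 2 (log2 difference -0.60, SE 0.20, limma adjusted p = 0.137). Without ago4-1 replicate 2 it was -0.24, and without ago4-1 replicate 1 it was -0.96. The inner envelope protein gene cemA had 1176 and 1241 in wild type against 915 and 786 in ago4-1 (log2 difference -0.50, limma adjusted p = 0.110). The cytochrome c assembly gene ccsA had 2847 and 2763 in wild type against 2209 and 2242 in ago4-1 (log2 difference -0.33, limma adjusted p = 0.177). In both genes the mutant arrays lay below wild type.

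The genes for assembly of photosystem I were alike in their differences but not in their spread. For ycf4 the arrays were at 319.9 and 315 in wild type against 259 and 197 in ago4-1 (log2 difference -0.46, limma adjusted p = 0.242). For ycf3 they were at 4835 and 3136 in wild type against 2713 and 3141 in ago4-1, so wild type replicate 2 and ago4-1 replicate 2 were level (log2 difference -0.41, limma adjusted p = 0.277). The difference of ycf3 was -0.10 without wild type replicate 1 and -0.72 without wild type replicate 2. The smallest differences of the 7 were those of accD and clpP. The fatty acid synthesis gene accD, for a subunit of acetyl-CoA carboxylase, was 305 and 276 in wild type against 245 and 257 in ago4-1 (log2 difference -0.20, 95% interval -0.62 to 0.22). The gene clpP, for the proteolytic subunit of the Clp protease, was 11497 and 12076 in wild type against 10938 and 10458 in ago4-1 (log2 difference -0.14, 95% interval -0.36 to 0.08). Neither gene overlapped between genotypes.

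**Figure D3:**
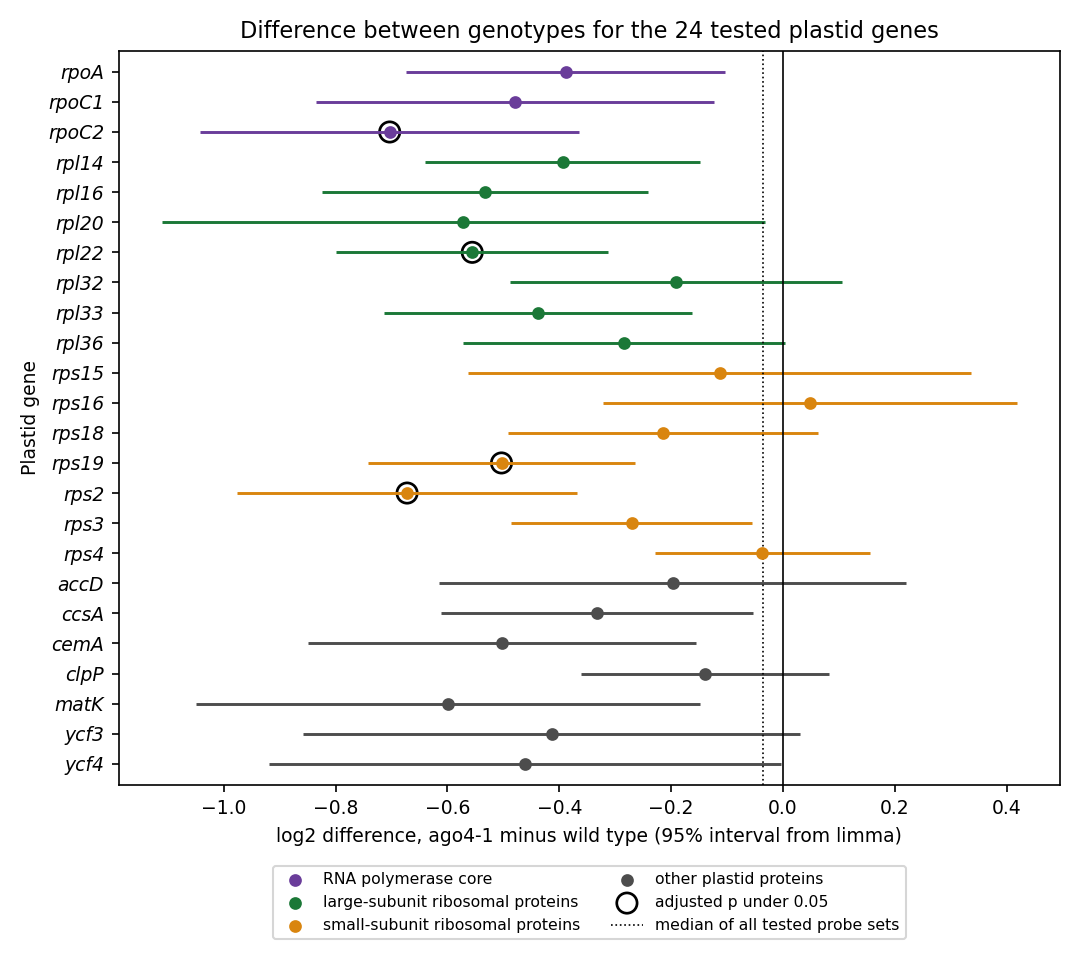
Log2 difference (ago4-1 minus wild type) of the 24 tested plastid genes with limma's 95% interval, coloured by role; circles mark adjusted p under 0.05 and the dotted line the median of all tested probe sets (-0.04). The intervals of 15 genes lie wholly below 0, and the 4 circled genes run from -0.70 (rpoC2) to -0.50 (rps19).

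The genes were also grouped by their neighbours on the plastid genome. In the cluster of rpoB, rpoC1, rpoC2 and rps2, the 3 tested genes stood from -0.70 to -0.48, with a median of -0.67, and both ago4-1 arrays lay below both wild-type arrays for each. The untested rpoB stood at 0.65 with both ago4-1 arrays above, and with it the median of the 4 genes was -0.58. The photosynthesis gene atpI on the far side of rps2 stood at -0.63 (limma adjusted p = 0.0817). The large ribosomal cluster with rps19, rpl22, rps3, rpl16, rpl14, rpl36 and rpoA had all 7 tested genes below 0 and without overlap, from -0.56 (rpl22) to -0.27 (rps3), with a median of -0.39. Within it rps3 lies between rpl16 and rpl22 but differed less than either. The cluster rpl33, rps18, rpl20 and clpP ran from -0.57 to -0.14, with a median of -0.33 and no overlap, and accD, ycf4 and cemA ran from -0.50 to -0.20. The 7 tested genes outside these clusters (matK, rps16, ycf3, rps4, rpl32, ccsA and rps15) had a median of -0.19, and 5 of them overlapped between genotypes. In that set, matK at -0.60 and its neighbour rps16 at 0.05 differed most. Over all 15922 tested probe sets the genotypes overlapped for 7582, and 29.2% had both ago4-1 arrays below both wild-type arrays. No difference between clusters, or between genes inside and outside them, was tested.

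**Figure D4:**
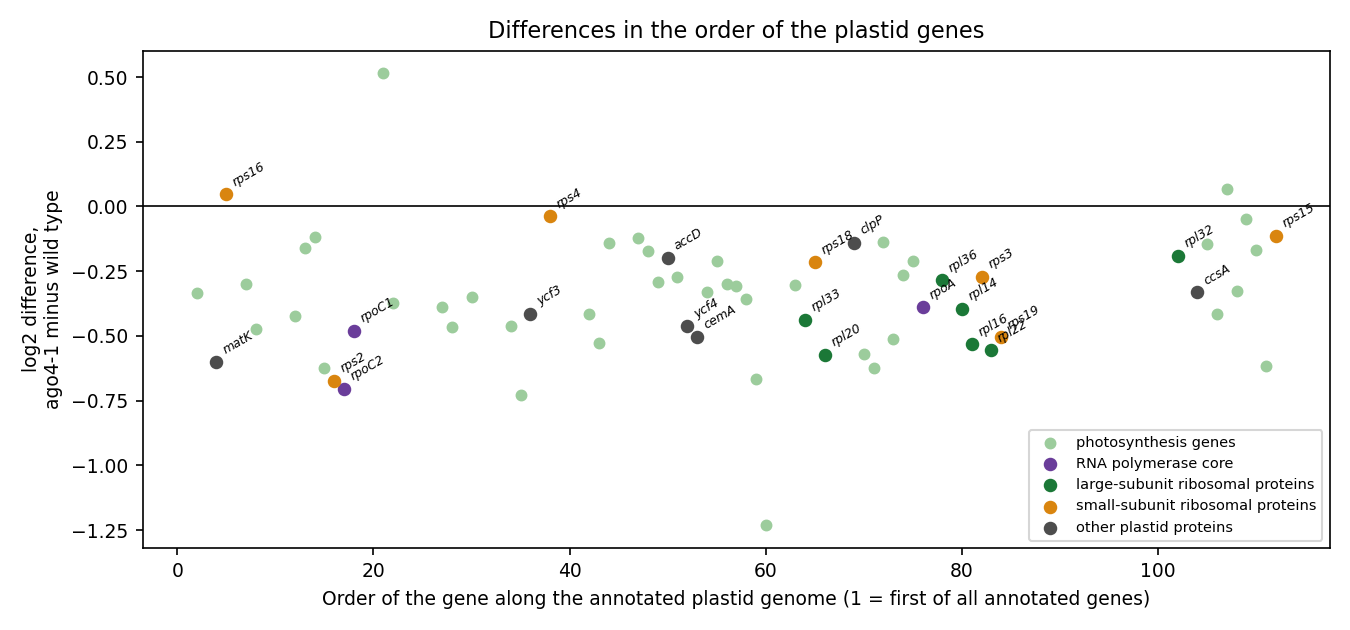
Log2 difference (ago4-1 minus wild type) of tested plastid genes against their order among all annotated plastid genes, with named, coloured points for the ribosome, polymerase and other genes and pale green points for photosynthesis genes. The 3 tested genes of the rpoB cluster (order 16 to 18) lie from -0.70 to -0.48, and rps16 is the one named point above 0.

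The size of the difference was set against the signal level of the genes. Across the 24 genes the mean log2 signal and the log2 difference had Pearson's r = 0.05 and Spearman's rho = 0.17, a description of genes that share the same 4 arrays. Most of the genes were bright: 19 of the 24 lay in the brightest 25% of all tested probe sets by mean signal, and those 19 all stood below 0, with a median of -0.41. The 3981 probe sets of that bright class had a median of 0.01, with 48.1% below 0. Above the 99th percentile of mean signal, 71.9% of 160 tested probe sets stood below 0, with a median of -0.06. The 2 genes of the group in that class had a median of -0.15. Cyclic loess normalization, which evens out trends with signal level over all probe sets, left the median of the 24 genes at -0.39. The part of signal level in the lower plastid signals was not tested.

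The plastid-encoded photosynthesis genes also stood lower in ago4-1. Of 42 tested, 40 were below 0, with a median of -0.33, and 33 had both ago4-1 arrays below both wild-type arrays; 0 passed the test in limma, with 20 at an unadjusted p under 0.05. The difference between this median and that of the ribosome, polymerase and other genes was not tested, and the order of the medians turned without wild type replicate 1 (-0.40 for photosynthesis genes, -0.36 for the others) and without ago4-1 replicate 1 (-0.38 and -0.34). Of the genes of the mitochondrion, the other organelle with a genome, 11 were tested. Among them 6 stood below 0 and 5 above, with a median of -0.06, and 0 passed, with 1 at an unadjusted p under 0.05 (nad4L at 1.25). That median was 0.0031 with cyclic loess normalization and -0.18 with the low-signal filter at the 50th percentile. Leaving out replicate 1 of ago4-1 gave -0.24, and leaving out its replicate 2 gave 0.04. Mean log2 signals ran from 6.04 to 10.54 for these 11 genes and from 7.74 to 14.75 for the 24 ribosome, polymerase and other genes. SEs ran from 0.16 to 0.41 and from 0.08 to 0.24. A difference between the organelles was not tested.

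**Figure D5:**
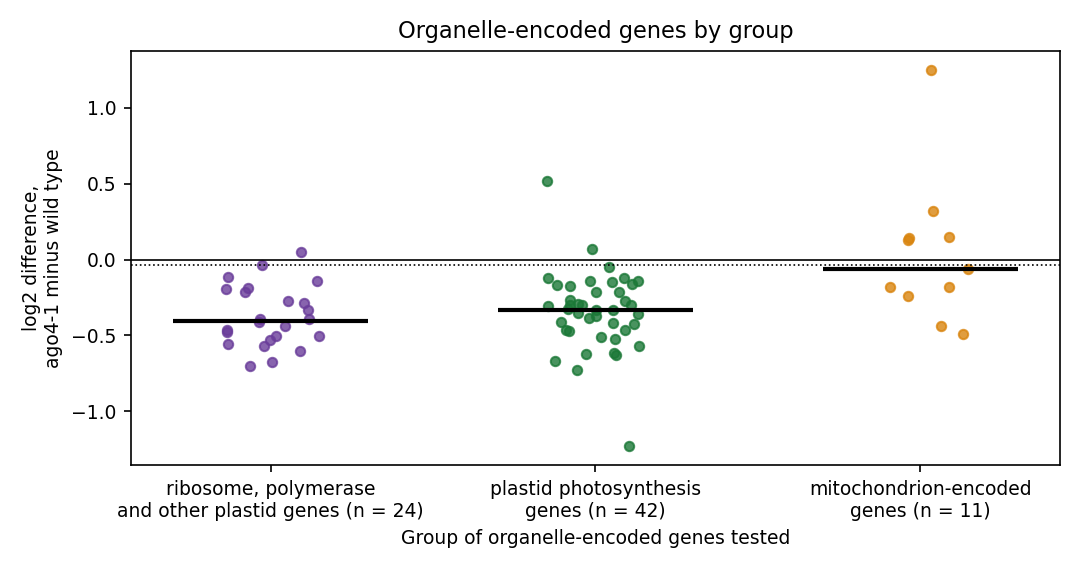
Log2 differences (ago4-1 minus wild type) of tested organelle-encoded genes (points) in 3 groups, with a bar at each median and a dotted line at the median of all tested probe sets. The medians are -0.40 for the 24 ribosome, polymerase and other plastid genes, -0.33 for the 42 plastid photosynthesis genes and -0.06 for the 11 mitochondrial genes.

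Few nuclear genes that serve plastid gene expression could be paired with a probe set through the annotation used. It gave no symbol for 8730 probe sets, so a gene left unpaired may still have a probe set on the chip. None of the listed sigma factors and polymerase-associated proteins (25 genes), nuclear-encoded plastid ribosomal proteins (23 genes) or acetyl-CoA carboxylase subunits (4 genes) was paired with a probe set of its own here. Of 34 listed genes for plastid RNA processing 11 were paired and 8 tested. All 8 stood below 0, with a median of -0.46, and CRR28, an editing factor for ndh transcripts, fell, from 143 and 144 in wild type to 57.5 and 34.8 in ago4-1 (log2 difference -1.39, limma adjusted p = 0.0497). That call was kept in 3 of 13 alternatives, with limma adjusted p from 0.0014 to 0.142. CAF1, a splicing factor for plastid introns, stood at -0.60 (limma adjusted p = 0.162), and OTP84, an editing factor, at -0.60. OTP70, which is needed for splicing of the rpoC1 transcript, was 92.7 and 50.9 in wild type against 43.7 and 49.1 in ago4-1 (log2 difference -0.45, limma adjusted p = 0.565). The paired genes under the low-signal limit were CRR22, which edits rpoB (-0.84), OTP86, which edits rps14 (0.75), and OTP80 (0.08). The genotypes overlapped for CRR22. For OTP86 and OTP80 both ago4-1 arrays lay above both wild-type arrays, at signals near the floor. OTP86 was 11.3 and 6.96 in wild type against 31.9 and 21.1 in ago4-1. CLPP4, a nuclear-encoded partner of clpP in the protease core, was 7294 and 7144 in wild type against 4172 and 7325 in ago4-1, so the genotypes overlapped (log2 difference -0.38, limma adjusted p = 0.368).

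Of the listed genes for chlorophyll synthesis and plastid development, 4 of 17 were paired and tested, and all 4 stood below 0. PORB, a protochlorophyllide oxidoreductase, fell 2.46-fold, from 3597 and 3464 in wild type to 1199.5 and 1689 in ago4-1 (log2 difference -1.30, SE 0.17, limma adjusted p = 0.00635). It was called in 13 of 14 alternatives, the exception being the one with no variance trend (limma adjusted p = 0.0833). HEMA2, for an early step of tetrapyrrole synthesis, stood at -0.65 (limma adjusted p = 0.248), CHLI2 at -0.21 and CHLM at -0.14.

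Markers of leaf and other tissues were checked in the same arrays. Of 26 listed leaf mesophyll markers 4 were paired, the nuclear photosynthesis genes LHCB4.1, LHCB4.2, PSAE-1 and RCA. They stood at -0.05, -0.11, -0.13 and -0.08, with 0 called in limma and 0 at an unadjusted p under 0.05. Their summed signal was 106735 and 106879 in wild type against 100209 and 100920 in ago4-1. They were very bright, with mean log2 signals from 14.15 (LHCB4.2) to 14.92 (LHCB4.1). The plastid genes above 14.15 with a probe set of their own stood at -0.04 (rps4), -0.05 (ndhI), -0.12 (atpE), -0.17 (atpB) and -0.37 (psbM). The part of signal level in these differences was not tested. The root markers EXPA18 and PYK10 stood at -1.44 and 0.25 with 0 called and EXPA18 at an unadjusted limma p of 0.0279, and the summed signal of the 3 paired root markers (of 15 listed) was 396 and 219 in wild type against 409.7 and 181 in ago4-1. The 3 paired senescence markers (of 12 listed) were all above 0 with 0 called, at 0.50 (SAG29), 0.42 (WRKY53) and 0.11 (WRKY6), and their summed signal of 378 and 629 in wild type overlapped with 484 and 885 in ago4-1. SAG29 was 256 and 239 in wild type against 306 and 415 in ago4-1, without overlap, and was the one senescence marker at an unadjusted limma p under 0.05. The anther gene AMS, the single paired marker of 12 listed, stood at -0.36, and no flower or seed marker was paired. The part of tissue composition in the lower plastid signals was not tested. For the GAPDH control probe sets the signal at the 3' end over that at the 5' end, a measure of RNA quality, was 1.56 and 2.05 in wild type against 1.41 and 1.74 in ago4-1. For the actin control probe sets it was much higher on every array, 8.25 and 11.3 in wild type against 8.78 and 7.99 in ago4-1. The genotypes overlapped in both ratios, and the part of RNA quality in the lower plastid signals was not tested.

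The 4 calls were close to the threshold. All 4 were lost without wild type replicate 1, without ago4-1 replicate 1, when dim probe sets were kept in and when the variance trend was left out, those of rpl22, rps2 and rps19 also with arrays centred on their medians, and those of rps2, rps19 and rpoC2 without wild type replicate 2. Over the 14 alternatives the lowest limma adjusted p of each came with blocking on replicate number and the highest with no variance trend. These were 4.17e-05 and 0.190 for rpl22, 0.000253 and 0.144 for rps2, 0.000186 and 0.211 for rps19, and 0.000238 and 0.149 for rpoC2. The blocked fit had 1 residual degree of freedom and called 2409 probe sets. Its median degrees of freedom from the prior were infinite, against 6.72 in the main fit. The median of the 24 genes lay between -0.41 and -0.33 over the 14 alternatives.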

How the data were processed

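RNA of 4 samples was biotin-labelled for ATH1 arrays, per the labels' protocols. The authors deposited intensity values, 1 linear signal for each probe set and array, which GCOS made per the submitters' processing notes; no source used here gives its settings. They were used as scaled by the authors (median signal 151 to 165.1 per array). Of 22810 probe sets, 64 controls were left out. The platform's annotation gave 1 gene symbol for 13513 probe sets, several for 503 and none for 8730. Gene IDs were looked up in the RefSeq table of TAIR10.1, used only for names, chromosome and gene order, and mitochondrial genes by symbol. Probe sets pairing with both copies of a repeated plastid gene were not taken as members.

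Values were transformed as log2(signal + 16), and probe sets with a mean under the 30th percentile were left out, leaving 15922. The genotype contrast was a two-sided limma 3.58.1 test (lmFit, then eBayes with a trended prior; R 4.3.3), called at a Benjamini-Hochberg adjusted p under 0.05, with 2 degrees of freedom from the residuals and, as a median, 6.72 from the prior. Folds are of signal + 16, and intervals are 95% intervals. The number of arrays limits the precision. The procedure was tested on simulated data. Alternatives were 3 normalizations, pseudocounts of 1 and 64, other filters, no variance trend, robust moderation, a looser threshold of 0.10, blocking on replicate number, and leaving out each array; the remaining array of a genotype is then assumed to vary like the others. Every member may be named, and in other lists the genes of smallest p and those acting on a member. The members, roles, clusters and lists were chosen with earlier results of these data known.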

Additional observations from a re-analysis of the deposited data

How the results depend on the processing

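The count of 647 called probe sets was 140 with no low-signal filter, 93 with no variance trend and 1256 at an adjusted p under 0.10, and with 1 array left out it was lowest at 280, without ago4-1 replicate 1, and highest at 1046, when replicate 2 of ago4-1 was left out. The count of 4 plastid genes called lower was 1 with arrays centred on their medians (rpoC2), 0 with no low-signal filter, 0 with no variance trend and 7 at an adjusted p under 0.10, and with 1 array left out it ran from 0 (without wild type replicate 1) to 7 (without ago4-1 replicate 2), with 1 without ago4-1 replicate 1 (matK). The cause was not tested. The 7 of 24 plastid genes at an adjusted p under 0.10 stood beside 1256 of all 15922 tested probe sets. With the replicate number as a block, 2409 of the 15922 tested probe sets and 12 of the 24 plastid genes were called. The labels state no shared batch behind the numbers. The deviations of same-numbered arrays correlated at 0.17 over all tested probe sets and at -0.17 over the plastid genes. The count called higher was 0 in each alternative run, the count below 0 ran from 22 to 24, and the median ran from -0.41 to -0.33. The median moved by more than the SD of 0.028 between replicate arrays, matched gene by gene, with arrays centred on their medians (-0.35) and with any array but wild type replicate 2 left out (from -0.39 to -0.33 over the 4 arrays). Signs turned for rps4 (0.053 with quantile normalization and 0.014 with centred arrays), rps15 (0.083 without ago4-1 replicate 1, with -0.31 as its lowest value) and rps16 (-0.00016 without wild type replicate 2, with 0.099 as its highest), while 21 genes kept theirs. Taking the dimmest probe set per gene, only probe sets ending in _at, or no genes of the inverted repeat left the members as they were. These settings therefore could not change the median (-0.40).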

Other observations

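A further 7 probe sets, pairing with 6 plastid genes that are annotated more than once on the genome, were outside the group and are not named. All 7 were tested and all stood below 0, from -0.88 to -0.34 with a median of -0.67. The lowest was a dim probe set with overlapping genotypes (SE 0.62, limma adjusted p = 0.468). It had 91.2 and 55.2 in wild type against 77.3 and 8.21 in ago4-1. For 6 of the 7 both ago4-1 arrays lay below both wild-type arrays, where 29.2% of all tested probe sets did so. In limma 2 of the 7 passed (adjusted p = 0.0159 and 0.0223), at log2 differences of -0.78 and -0.81. Over all tested probe sets 1.92% were called lower. The brightest of them had signals of 18179 and 21318 in wild type against 14235 and 15435 in ago4-1 (log2 difference -0.41, limma adjusted p = 0.0735).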
